A study of Rattus norvegicus with 8 samples.

Results

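The first hour of exposure to S-nitrosoglutathione (GSNO), a compound that releases nitric oxide, was compared with untreated cells in primary rat pulmonary artery smooth muscle cells. The comparison used 4 of the 8 arrays of the study: 2 arrays of cells exposed for 1 h and 2 arrays of untreated cells, numbered 1 and 2 in each group. The other 4 arrays, of cells exposed for 2 h and 4 h, entered the fit for its estimate of the spread and are otherwise given beside the first-hour values. All probe sets outside the array's own control features were eligible, 8740 of 8799, and 5877 of them were bright enough to be tested.

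Both groups were cultures grown from explants of pulmonary arteries of adult Sprague-Dawley rats, from which endothelium and adventitia had been stripped. The treated cells differed from the untreated ones by GSNO alone as far as the labels go, and the untreated cells carry no stated time. GSNO and the hour in culture cannot be told apart. The concentration is given as 100 μmol/L in the design text and as 100 mmol/L in the treatment protocol. The design speaks of a pair of independent cell preparations, but does not say that the array number is the preparation. If it is not, the p-values measure only the spread between arrays.

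Nitric oxide activates soluble guanylate cyclase in smooth muscle, and the cGMP it makes acts through cGMP-dependent protein kinase and on phosphodiesterases, which links it to cAMP. S-nitrosothiols also modify protein thiols directly, including those of KEAP1, which holds back the antioxidant factor NRF2. Genes that respond within the first hour of a stimulus are mostly immediate early genes, transcribed by factors already present, such as CREB and serum response factor; many encode transcription factors or inhibitors of the pathway that induced them.

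The 4 arrays had like median signals, of 120 to 131 signal units. Their upper ends differed by number. The 99th percentile was 14207 in control and 13732 at 1 h in number 1, against 10436 and 11023 in number 2. Over all 8 arrays the 3' to 5' ratio spanned 0.926 to 1.11 for the actin control transcript and 0.934 to 1.08 for the GAPDH one. Acta2 and Tagln, which encode the smooth muscle forms of actin and transgelin, stood above the 98th percentile of signal on each of the 4 arrays. The endothelial markers Vwf and Kdr, the epithelial markers Sftpc and Epcam and the leukocyte marker Itgam were too dim to be tested. Others were not: the endothelial marker Pecam1 read 63.8 to 121 on the 4 arrays and 1 of 3 probe sets of the leukocyte marker Ptprc 111 to 169, both near the arrays' medians or below. Flt1, also endothelial, read 154 to 332, above the median of each array. The epithelial marker Krt18 read 193 and 226 in number 1 and 52.0 and 66.8 in number 2 on its brighter probe set. Nos3, Selp, Sftpb, Krt8, Aqp5, Cd14, Cd74 and Cd4 were bright enough to be tested too. Col1a1, a collagen gene of fibroblasts, stood above the 95th percentile on all 4 arrays on each of its probe sets. The arrays numbered 1 and those numbered 2 were scanned on different days with different fluidics protocols. In number 1 the control and the 1 h array came from different recorded experiments and chip lots, and the 1 h array was the only one of its lot, so in that number lot and treatment cannot be told apart. In number 2 they shared both.

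The first hour was led by rises. Of the 5877 probe sets, 29 (0.493%) were higher and 2 (0.034%) lower than in untreated cells at an adjusted p under 0.05 in limma, which tests each probe set on log2 signal across all arrays. They covered 16 named genes that rose and 1, Klf6, that fell. With the array number as a block in the fit, 67 (1.14%) were higher and 12 (0.204%) lower, for 37 named genes that rose and 7 that fell. All 31 probe sets of the fit without the block were among these 79. Of the 67, 11 had both control arrays below the 40th percentile of signal, the filter for testing. They were tested only because treated arrays were bright. Probe sets of Hk2, Gdf15, Tuba4a, Il6, Crem, Errfi1, Efna1 and Pde4b were among them. Of the 12, 3 had both 1 h arrays below that percentile. With the recorded experiment as the block 40 (0.681%) were called, 35 (0.596%) higher and 5 (0.0851%) lower, and 38 of them were among the 79. In that fit only number 2 compares control and 1 h within an experiment. Each change below is a log2 difference in signal, 1 h minus control, with its standard error (SE) from 2 arrays a group.

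The largest rise was in Klf4 and the next in the NR4A receptors. Klf4, a zinc finger factor known for control of the smooth muscle phenotype, read 244 and 110 signal units on the control arrays numbered 1 and 2 and 7063 and 5893 on the 1 h arrays. Its second probe set read 165 and 51.5 against 6093 and 4691, a change of 5.53 ± 0.42 (SE; limma adjusted p = 0.0027). The arrays of each group lay far apart from those of the other for both probe sets, and the change was within the 4 largest of all probe sets in either number.

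All 3 members of the NR4A family of orphan nuclear receptors, which act without a known ligand and are induced through CREB in many cells, rose with Klf4. Nr4a1 read 745 and 272 in control and 12030 and 11413 at 1 h, a change of 4.63 ± 0.49 (limma adjusted p = 0.0064). Nr4a2 read 143 and 114 in control against 2802 and 2768, a change of 4.24 ± 0.46 (adjusted p = 0.0069). Nr4a3 read 130 and 28.6 in control against 3624 and 3071, a change of 5.28 ± 0.46 (adjusted p = 0.0040). The 1 h arrays of these genes lay close together, and the wider spread was between the control arrays of Nr4a1 and Nr4a3. A second probe set of Nr4a3 had a change of 1.59 and was not called in either fit (adjusted p = 0.46; 0.070 with the block).

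Crem and Pde4b, which both restrain cAMP signalling, rose too. Crem, whose short forms repress CREB target genes, read 278 and 240 in control and 3137 and 2089 at 1 h, a change of 3.21 ± 0.31 (limma adjusted p = 0.0047). All 3 of its probe sets were called, with changes of 2.87 to 4.54. The probe set with 4.54 read only 10.7 and 38.5 in control, below the filter level, and was tested only because treated arrays were bright. Pde4b, a phosphodiesterase that degrades cAMP, read 122 and 125 in control against 697 and 819, a change of 2.43 ± 0.23 (adjusted p = 0.0047). Its probe sets differed, since another read 110 and 69.3 against 129 and 103, a change of 0.32.

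Of the other transcription factors, Junb, a subunit of AP-1, read 968 and 540 in control and 4966 and 3165 at 1 h (limma adjusted p = 0.024). Cebpb, a leucine zipper factor of the C/EBP family, read 884 and 966 against 5946 and 4629, a change of 2.48 ± 0.24 (adjusted p = 0.0047). Klf10, a zinc finger factor induced by TGF-beta, read 102 and 188 against 718 and 923 (adjusted p = 0.018). On these probe sets, the lowest 1 h array of each of the 3 was more than 3 times the highest control array. The other probe set of Cebpb was called too, with a change of 2.97. That of Junb read 1002 and 463 against 5559 and 2739 and was called only with the block (adjusted p = 0.078). So was the brightest of Klf10, at 97.2 and 543 against 1225 and 1819 (adjusted p = 0.29). The dimmest of Klf10 was called in neither fit, with changes of 0.75 in number 1 and 3.01 in number 2. Ier3 is not one of these factors but an early response gene tied to cell survival. It read 883 and 482 against 3483 and 3025 (adjusted p = 0.030). The other probe set of Ier3 had a change of 1.51 and was called only with the block (limma adjusted p = 0.097).

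Among the genes that encode no transcription factor, Errfi1, which binds and inhibits the EGF receptor, read 148 and 282 in control and 2233 and 3320 at 1 h, a change of 3.60 ± 0.41 (limma adjusted p = 0.0083). Gclc, which catalyses the first step of glutathione synthesis and is a well known NRF2 target, read 108 and 167 against 1041 and 1030, a change of 2.76 ± 0.28 (adjusted p = 0.0058). Cyp1b1, a cytochrome P450 that hydroxylates oestrogens, read 588 and 554 against 2606 and 1817 (adjusted p = 0.034). The groups did not overlap for any of these 3 genes, where 10.1% of all probe sets had both 1 h arrays above both controls.

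Tuba4a, an alpha tubulin, read 61.7 and 25.9 in control and 960 and 407 at 1 h (limma adjusted p = 0.040). Hk2, the hexokinase that starts glycolysis in muscle, read 65.1 and 10.03 against 1055 and 1040 (adjusted p = 0.049), while its other probe set read 375 and 489 against 974 and 858, a change of 1.06 with an adjusted p of 1.00. Gdf15, a secreted member of the TGF-beta family, read only 20.2 and 23.0 in control against 202 and 192 (adjusted p = 0.049). Tuba4a, Hk2 and Gdf15 started from weak signal, where the offset of 21.1 units added before the logarithm shrinks a change.

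**Figure D1:**
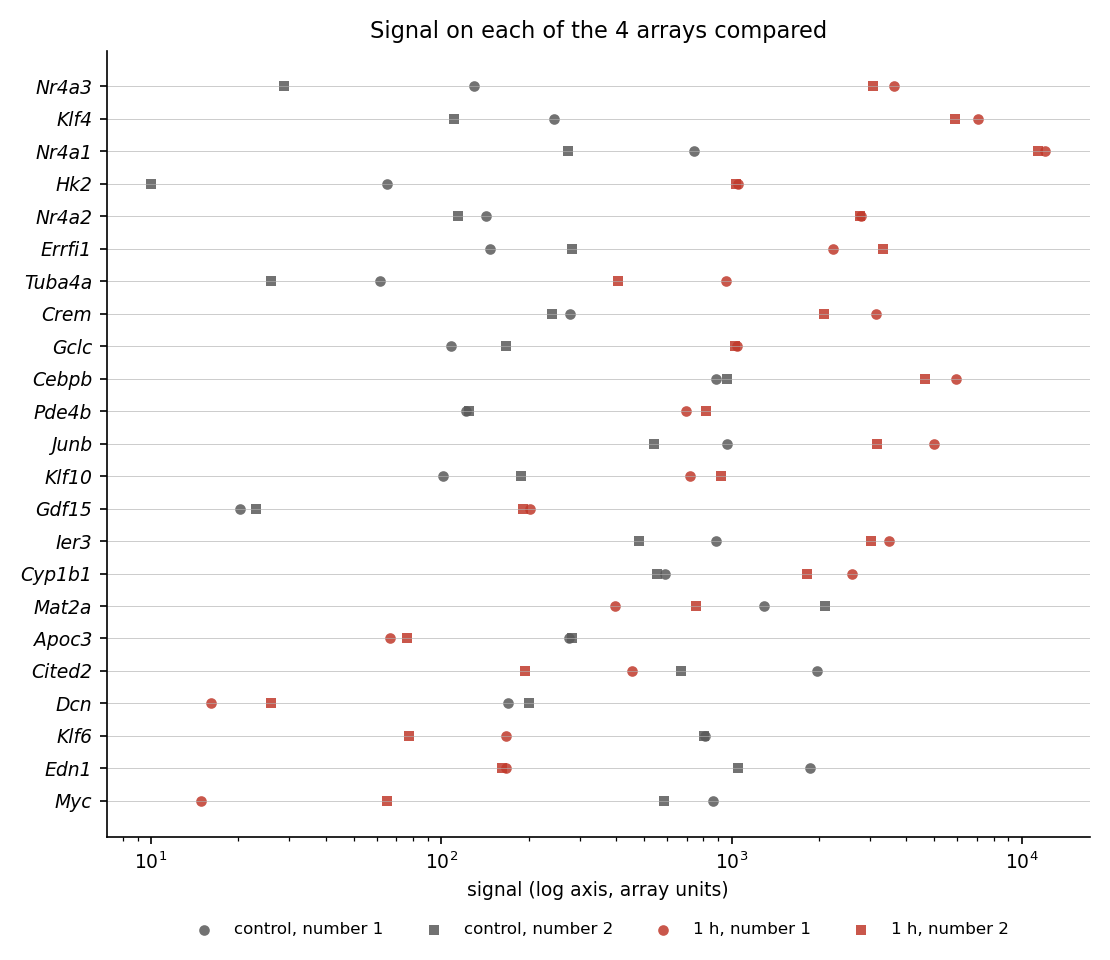
Signal of the called probe set with the lowest adjusted p for each of 23 genes, on a log axis, for the 2 control and the 2 1 h arrays, with the array number shown by the marker. In the 16 genes that rose without the block the 1 h arrays stand to the right of the controls, and in the 7 genes called lower they stand to the left, with no overlap of the groups. The genes were chosen by their calls. Of all probe sets, 10.1% had both 1 h arrays above both controls and 13.0% had both below.

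Falls were fewer and rested more on the block. Klf6, a relative of Klf4, read 809 and 803 in control and 168 and 77.5 at 1 h, and fell by 2.60 on the log2 scale (SE 0.42; limma adjusted p = 0.049, and 0.0060 with the block). Myc, a factor that drives growth and cell cycle entry, read 862 and 584 against 14.9 and 64.8, a change of -3.72 ± 0.74 called only with the block (adjusted p = 0.13; 0.016 with the block). Edn1, the precursor of the vasoconstrictor endothelin 1, read 1866 and 1056 against 168 and 162, a change of -2.94 ± 0.51, again called only with the block (adjusted p = 0.067; 0.0030 with the block). For Myc and Edn1 the 1 h signals were all far below the lower control signal. Those of Myc were also below the 40th percentile of their arrays, so the size of its fall is measured poorly. Another probe set of Myc changed by -2.05 and was called with the block (adjusted p = 0.0079).

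The other falls called only with the block were in Cited2, Mat2a, Dcn and Apoc3. Cited2, a co-regulator that limits HIF-1 activity, read 2507 and 820 in control and 599 and 166 at 1 h. The control array numbered 2 was thus close to the 1 h array numbered 1, while the change was alike within the numbers at -2.03 and -2.17 (limma adjusted p with the block = 2.5e-04). Mat2a, which makes S-adenosylmethionine, read 1289 and 2097 against 396 and 753, with changes of -1.65 and -1.45 in the numbers (adjusted p with the block = 0.0018). Dcn, which encodes the matrix proteoglycan decorin, read 170 and 200 against 16.1 and 25.9 on the probe set that was called, while its other tested probe set had a change of 0.53. Apoc3, a lipoprotein component, had a second probe set too that did not follow, with a change of 0.14 against -1.70.

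A further 21 genes rose only with the block. Plat, the tissue plasminogen activator that starts clot lysis, read 1504 and 952 in control and 8052 and 3696 at 1 h (limma adjusted p = 0.22, and 1.3e-04 with the block). Its changes within the numbers were 2.40 and 1.93. Thbd, the thrombin receptor thrombomodulin, read 108 and 247 against 391 and 794 (adjusted p with the block = 0.0025), with changes of 1.67 and 1.60. The other, brighter probe set of Thbd read 712 and 635 against 888 and 923, a change of 0.42 that was not called (adjusted p with the block = 1.00). On the called probe sets, Plat was higher in number 1 and Thbd in number 2, in control and at 1 h alike.

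Hmox1, the haem oxygenase that is a classic NRF2 target, read 454 and 649 in control and 2949 and 1699 at 1 h (limma adjusted p = 0.14; 0.0052 with the block). Its rise was 2.64 in number 1 and 1.36 in number 2. The other probe set of Hmox1 had a change of 2.24 and was called in neither fit (limma adjusted p = 0.57; 0.059 with the block). Stress genes of the integrated stress response were called with the block as well, with Ddit3, which encodes CHOP, at a change of 1.62 and Ppp1r15a, which encodes the phosphatase subunit GADD34, at 1.71. A second probe set of Ppp1r15a had a change of 1.99 and was called in neither fit (limma adjusted p = 0.26; 0.066 with the block). Il6, an inflammatory cytokine, read 26.6 and 15.8 against 127 and 187, a change of 2.07 from weak control signal (adjusted p with the block = 0.027). The other, dimmer probe set of Il6 had a change of 1.05 and was called in neither fit (limma adjusted p with the block = 0.69).

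Id2, an inhibitor of helix-loop-helix factors, changed by 2.02 with the block, and Smad7, the inhibitory SMAD of TGF-beta signalling, by 1.68. Smad7 read 50.3 and 285 in control against 290 and 697 at 1 h, so the control array numbered 2 lay beside the 1 h array numbered 1. Dusp1, the phosphatase that inactivates MAP kinases, had 3 probe sets called with the block, with changes of 1.13 to 1.43. The rest of the 15 largest were Hoxa5 at 3.07, Efna1 at 2.68, Cwc25 at 2.33, Nrarp at 1.61, Sdc4 at 1.47 and Idi1 at 1.45. That probe set of Efna1 read only 22.4 and 23.6 in control, below the filter level, and its other called probe set changed by 1.36. The other probe sets of Sdc4 were not called, with changes of 0.70 and -0.00. The other 6, named after their values were seen, were Dgcr6, Ptp4a1, Id3, Insig1, Emd and Dgat1, with changes of 1.22 to 1.40 on the called probe set that changed most.

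Promoter sequences of the rising genes were searched for the cAMP response element (CRE), TGACGTCA, and its short form, TGACG, on both strands, in the 250 bases before each start in RefSeq (GRCr8). The short form lies inside the full element. Of the 37 genes called higher, 29 had a window, and 4 of these (13.8%), Crem, Dusp1, Il6 and Ppp1r15a, held the full element, against 76 of 2873 (2.65%) tested genes with a window. The short form was in 16 (55.2%), against 819 of the 2873 (28.5%), and in none of the 4 windows of the 7 genes called lower. Among the genes called higher without the block, Cebpb, Crem, Errfi1, Junb, Nr4a1, Nr4a2 and Tuba4a held the short form. Klf4, the largest rise, and Gclc, Hk2, Cyp1b1, Gdf15 and Pde4b held neither form in any window. Nr4a3, Klf10 and Ier3 had no window. The windows of Crem, Dusp1, Il6, Ppp1r15a and Nr4a1, which had the short form 4 times and no full element, are printed because they hold these letters. Capitals mark both forms, and each reads 5' to 3' in the direction of the gene. Crem lies at chr17:58985240-58985489 on the plus strand, Dusp1 at chr10:17184603-17184852 (plus), Il6 at chr4:5894576-5894825 (minus), Ppp1r15a at chr1:105139597-105139846 (minus) and Nr4a1 at chr7:134259888-134260137 (plus).
Crem: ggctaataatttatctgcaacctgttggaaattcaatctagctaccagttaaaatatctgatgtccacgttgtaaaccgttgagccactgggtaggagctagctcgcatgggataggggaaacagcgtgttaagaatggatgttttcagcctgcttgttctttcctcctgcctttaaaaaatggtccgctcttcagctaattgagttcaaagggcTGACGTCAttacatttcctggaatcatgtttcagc
Dusp1: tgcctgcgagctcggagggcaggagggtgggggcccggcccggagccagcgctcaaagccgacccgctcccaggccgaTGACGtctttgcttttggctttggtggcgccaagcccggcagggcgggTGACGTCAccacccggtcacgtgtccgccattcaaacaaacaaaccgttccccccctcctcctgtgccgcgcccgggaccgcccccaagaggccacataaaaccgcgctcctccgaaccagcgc
Il6: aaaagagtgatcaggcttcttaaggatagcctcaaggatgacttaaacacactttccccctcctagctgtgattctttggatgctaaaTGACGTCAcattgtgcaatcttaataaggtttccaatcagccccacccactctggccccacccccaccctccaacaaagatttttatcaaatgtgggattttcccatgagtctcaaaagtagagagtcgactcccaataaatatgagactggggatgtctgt
Ppp1r15a: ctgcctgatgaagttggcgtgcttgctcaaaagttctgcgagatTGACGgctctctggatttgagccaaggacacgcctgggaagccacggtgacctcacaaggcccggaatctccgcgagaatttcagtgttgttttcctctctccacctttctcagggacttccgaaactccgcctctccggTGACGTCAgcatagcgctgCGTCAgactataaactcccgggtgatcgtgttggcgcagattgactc
Nr4a1: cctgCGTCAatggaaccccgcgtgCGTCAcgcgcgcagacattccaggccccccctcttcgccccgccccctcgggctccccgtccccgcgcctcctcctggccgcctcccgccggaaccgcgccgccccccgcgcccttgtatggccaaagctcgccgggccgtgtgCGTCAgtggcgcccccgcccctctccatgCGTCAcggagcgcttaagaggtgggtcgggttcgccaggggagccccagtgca

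A gene with several starts was counted when any window held the letters, and the 29 genes had 33 windows and the 2873 had 3100. Crem had 3 windows: that printed, another with the full element 56 bases before its start, and 1 with the short form only. In the printed windows the full element began 35 bases before the start in Crem, 66 in Ppp1r15a, 124 in Dusp1 and 162 in Il6. Of these genes only Crem was called without the block. The antioxidant response element core, TGACNNNGC, which can overlap the short form, was in 6 of the 29 (20.7%) against 14.0% of tested genes, and the AP-1 site, TGANTCA, in 4 (13.8%) against 5.15%. The CArG box of serum response factor was in 0 of the 29 against 1.67%. A match describes letters in a window and does not show that a factor was bound there.

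The array numbers gave 2 readings of the first hour that share no array. Over all 5877 probe sets the changes of the numbers correlated with a Pearson r of 0.380 and a Spearman rho of 0.078, across probe sets, which are not independent replicates, and 52.6% had the same sign in both. In 4 groups of near equal size by mean signal, from dim to bright, r was 0.090, 0.221, 0.466 and 0.680. Spearman's rho in the same groups was 0.027, 0.062, 0.165 and 0.087, so ranks were close to unrelated at every signal level, the brightest included.

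**Figure D2:**
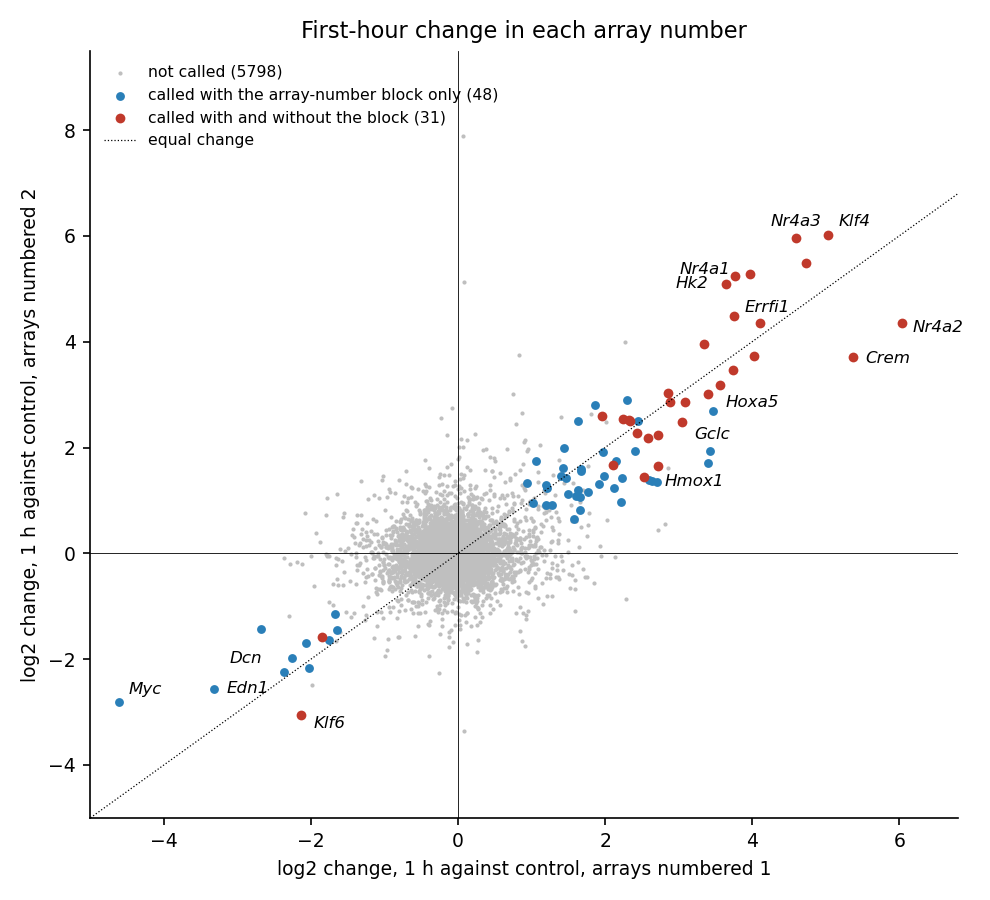
Log2 change at 1 h in the arrays numbered 1 (horizontal) against that in the arrays numbered 2 (vertical) for each of the 5877 probe sets, with colours for the calls and a dotted line of equal change. Called probe sets lie along the line on both sides, most points of the cloud lie within 1 of the origin, and a few uncalled points sit far out in 1 number only.

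Among the 50 most extreme probe sets of each number, rises were seen again in the other number more often than falls. Of the 50 probe sets with the highest change in number 1, 44 had a change above 1 in number 2, with a median there of 2.49. Of the 50 highest in number 2, 36 did so in number 1, with a median of 2.33. Of the 50 lowest in number 1, 17 had a change below -1 in number 2, and the other way round it was 16. Over all probe sets, 3.32% were above 1 in number 1 and 3.68% in number 2, and 2.65% and 1.75% were below -1.

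Large changes were seen again more often than smaller ones. Of the 49 rises of more than 2 in number 1, 87.8% exceeded 1 in number 2, against 24.7% of the 146 rises between 1 and 2. Of the 14 falls of more than 2 in number 1, 64.3% were below -1 in number 2, against 11.97% of the 142 falls between 1 and 2. Choosing in number 2 gave 69.2% of 52 large rises and 75.0% of 8 large falls.

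**Figure D3:**
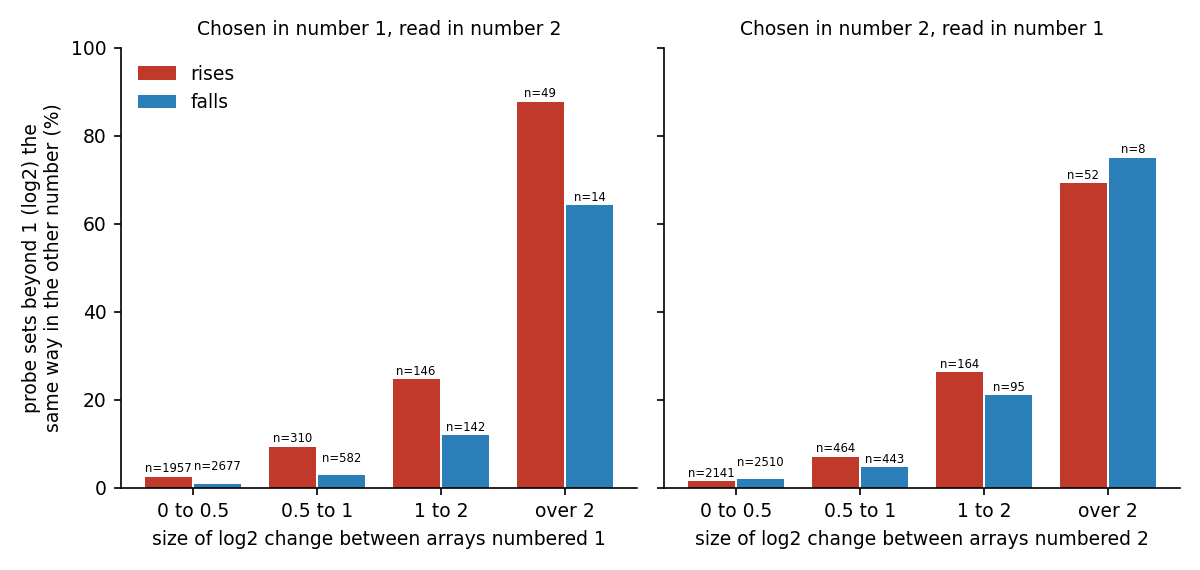
Percent of probe sets with a change beyond 1 in the same direction in the other array number, by size and direction of the change in the number where they were chosen. The bars for rises of more than 2 reach 87.8% and 69.2%, and those for rises of 1 to 2 stay at 24.7% and 26.2%.

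In both numbers together, 79 probe sets (1.34%) were above 1 and 26 (0.442%) below -1. Of the 79, 29 were called without the block, 31 only with it and 19 in neither fit, and of the 26 the counts were 2, 10 and 14. Both 1 h arrays were above both controls for 593 probe sets (10.1%) and below both for 762 (13.0%), so the lack of overlap alone does not mark a called gene. Only 9 probe sets were beyond 1 in opposite directions, 8 of them in the dimmest of these 4 groups.

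The named genes that opposed each other most were Acr, Fst, Igf1, LOC100912629, Alox5ap and Tnni3, none of them called. Fst, the activin antagonist follistatin, read 245 and 143 in control and 782 and 56.6 at 1 h, with changes of 1.59 and -1.08. Another probe set of Fst had changes of 1.94 and -0.05, so the fall in number 2 was not seen there. Igf1, the growth factor, read 152 and 74.6 against 64.5 and 241, while its brightest probe set had smaller changes of -0.50 and 0.20. On the opposed probe sets of both genes the 1 h arrays spanned a wider range than the controls and enclosed them.

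Leaving out 1 array showed how far the calls rest on each. Without the control array numbered 1 or 2, 20 and 15 probe sets were called in place of 31, and without the 1 h array numbered 1 or 2, 5 and 8. Called in all 4 of these fits were both probe sets of Klf4, 1 of Nr4a3 and 1 with no single symbol (M60921_g_at). With the block, 39 of the 79 were called in all 4, and 11 in none, among them Gdf15, Il6, Smad7, Apoc3 and Dcn. With 1 array of a group left, limma takes its spread from the other groups.

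Several probe sets for a gene gave a further reading. Of the 44 genes called with the block, 27 had more than 1 tested probe set, 64 in all, and 48 of these were called and 61 had the gene's direction. In 24 of the 27 genes every probe set shared the direction, and the exceptions were Apoc3, Dcn and Sdc4. The other 17 genes rested on a single probe set, Gclc, Gdf15, Edn1 and Klf6 among them.

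Gene lists, chosen with earlier results of these data known, placed these genes in pathways. Each gene was read by the probe set with the highest mean signal over all 8 arrays. Treated arrays enter that mean, which favours probe sets that rise, so the counts are a description only. For Nr4a3 the probe set read changed by 5.28, while the other, brighter in control (mean 201 against 79.4), changed by 1.59 and was not called. The shares to set beside each list are those of all probe sets, 0.493% higher and 0.034% lower without the block and 1.14% and 0.204% with it. Of 9 tested cAMP and CREB targets, 5 rose without the block and 6 with it and none fell, with a median change of 2.43, and of 2.33 and 2.53 in the numbers. The median over all probe sets was -0.05. The 5 were Nr4a1, Nr4a2, Nr4a3, Crem and Pde4b. Of 29 immediate early genes, 5 rose and 1 fell without the block, 8 and 2 with it, and the median was 0.25. The lists share Nr4a1, Nr4a2, Nr4a3 and Dusp1, so 3 of these 5 rises, and 4 of the 8 with the block, were already counted among the CREB targets. Klf4 and Ier3 were the other rises without the block. Klf6 fell without the block and Myc only with it. Junb and Klf10 count here as rises only with the block, because the list reads another probe set than the one called without it.

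In the stress lists the medians stood near 0 while single genes were called, against the same shares of all probe sets. Of 19 NRF2 and antioxidant genes 1 rose without the block, Gclc, and 2 with it, Hmox1 being the second, while the median was -0.03. Gclm, the partner subunit of Gclc, had changes of 0.93 in number 1 and -0.05 in number 2 and was not called. Of 19 genes of the integrated stress and unfolded protein response, Cebpb and Gdf15 rose without the block and Ppp1r15a and Ddit3 with it, with a median of 0.13. Of 11 heat shock proteins 0 were called in either fit, with a median of -0.09, and Hspa1a had the largest change, -0.85.

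Feedback inhibitors of MAP kinase and EGF receptor signalling had 6 tested genes, of which Errfi1 rose without the block and Dusp1 only with it, where 1.14% of all probe sets were higher and 0.204% lower. Of 15 components of nitric oxide and cGMP signalling 0 were called, with changes between -0.46 and 0.36, the extremes being Npr2, a natriuretic peptide receptor, and Gucy1b2, a guanylate cyclase subunit. Of 13 contractile genes of smooth muscle 0 were called, with a median of 0.04, and Actg2 at -0.96 was the farthest from 0. Of 15 inflammatory genes Il6 was called, with the block only, and of 25 secreted factors Gdf15 rose without the block, Il6 with it, and Edn1 fell with it. Of 16 cell cycle genes Myc alone was called, with the block.

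**Figure D4:**
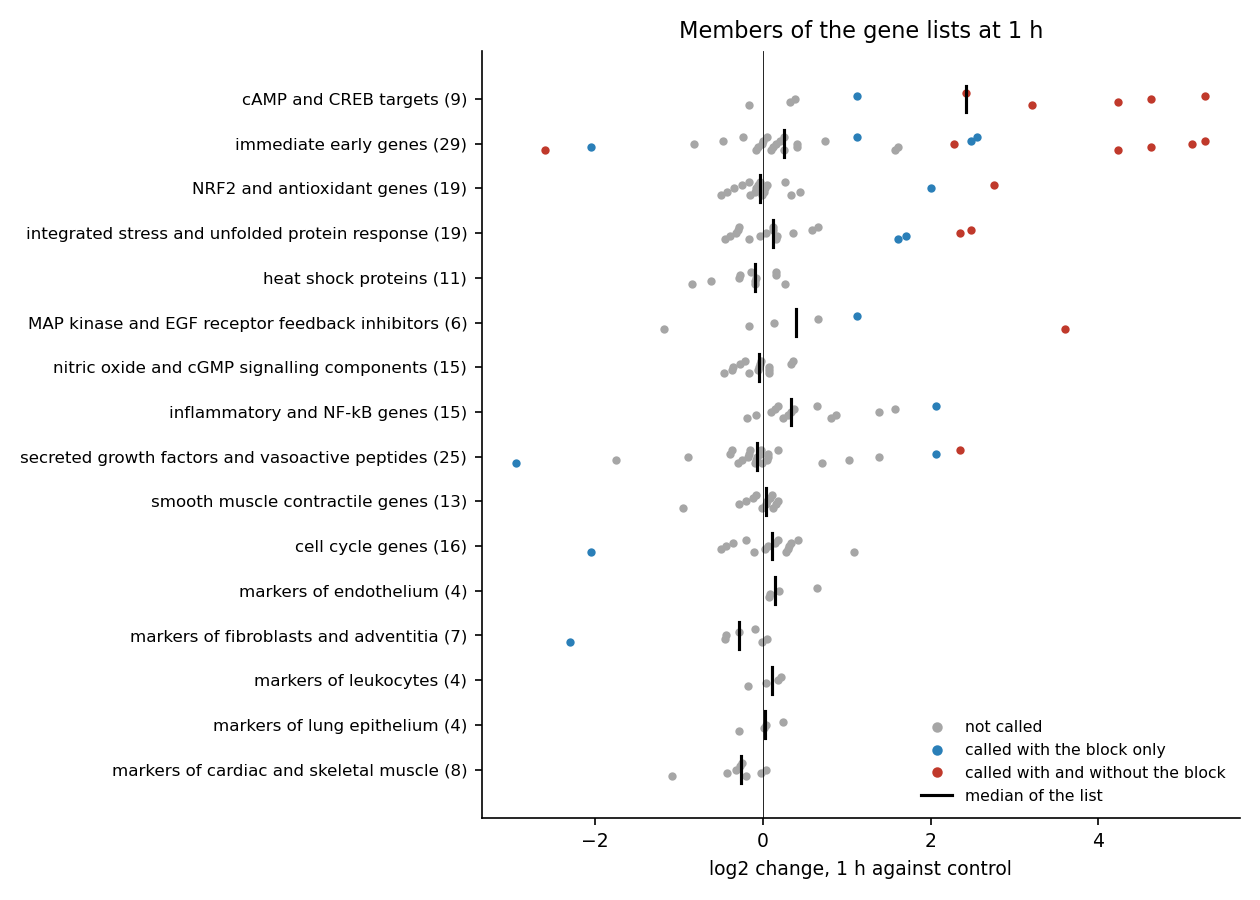
Log2 change at 1 h of each tested gene of the 16 lists, 1 point a gene, with the number of tested genes in brackets, colours for the calls and a bar at the list's median. The cAMP and CREB targets have their median at 2.43, and the medians of the other lists lie between -0.28 and 0.39.

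Of the markers of other cell types, Dcn alone was called, with the block. The other tested markers of fibroblasts and adventitia, 6 genes, had changes of -0.46 to 0.05, and the summed signal of the list was 66457 and 67953 in control and 46469 and 72399 at 1 h. It was thus lower at 1 h in number 1 only, where the change of Col1a1 was -0.71 and that of Col3a1 -0.98. Whether a different share of fibroblasts took part in the change of Dcn was not tested, and in bulk RNA fewer cells of a type and less RNA per cell cannot be told apart. Of 4 endothelial, 4 leukocyte, 4 epithelial and 8 cardiac or skeletal muscle markers, 0 were called in either fit.

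The later times share the control arrays with the first hour, so their values are given beside it only as a description. Of the 67 probe sets called higher with the block, 38 had a larger change at 2 h than at 1 h and 27 a larger one at 4 h, and 15 were under 1 at 4 h. Among the early factors, Nr4a1 stood at 4.63, 3.68 and 2.30 after 1 h, 2 h and 4 h, and Nr4a2 at 4.24, 3.32 and 1.22. Klf4 stood at 5.53, 5.74 and 5.33.

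Crem, Gclc and Hmox1 each had a lower change at 1 h than at the later times. Crem stood at 3.21, 4.13 and 4.30, Gclc at 2.76, 4.08 and 4.46, and Hmox1 at 2.00, 3.86 and 4.64. Junb went the other way, at 2.42, 1.24 and 0.98. Of the 12 probe sets called lower with the block, 6 were lower still at 2 h and 6 at 4 h. Edn1 stood at -2.94, -3.81 and -3.22, and Myc at -3.72, -2.35 and -1.72.

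**Figure D5:**
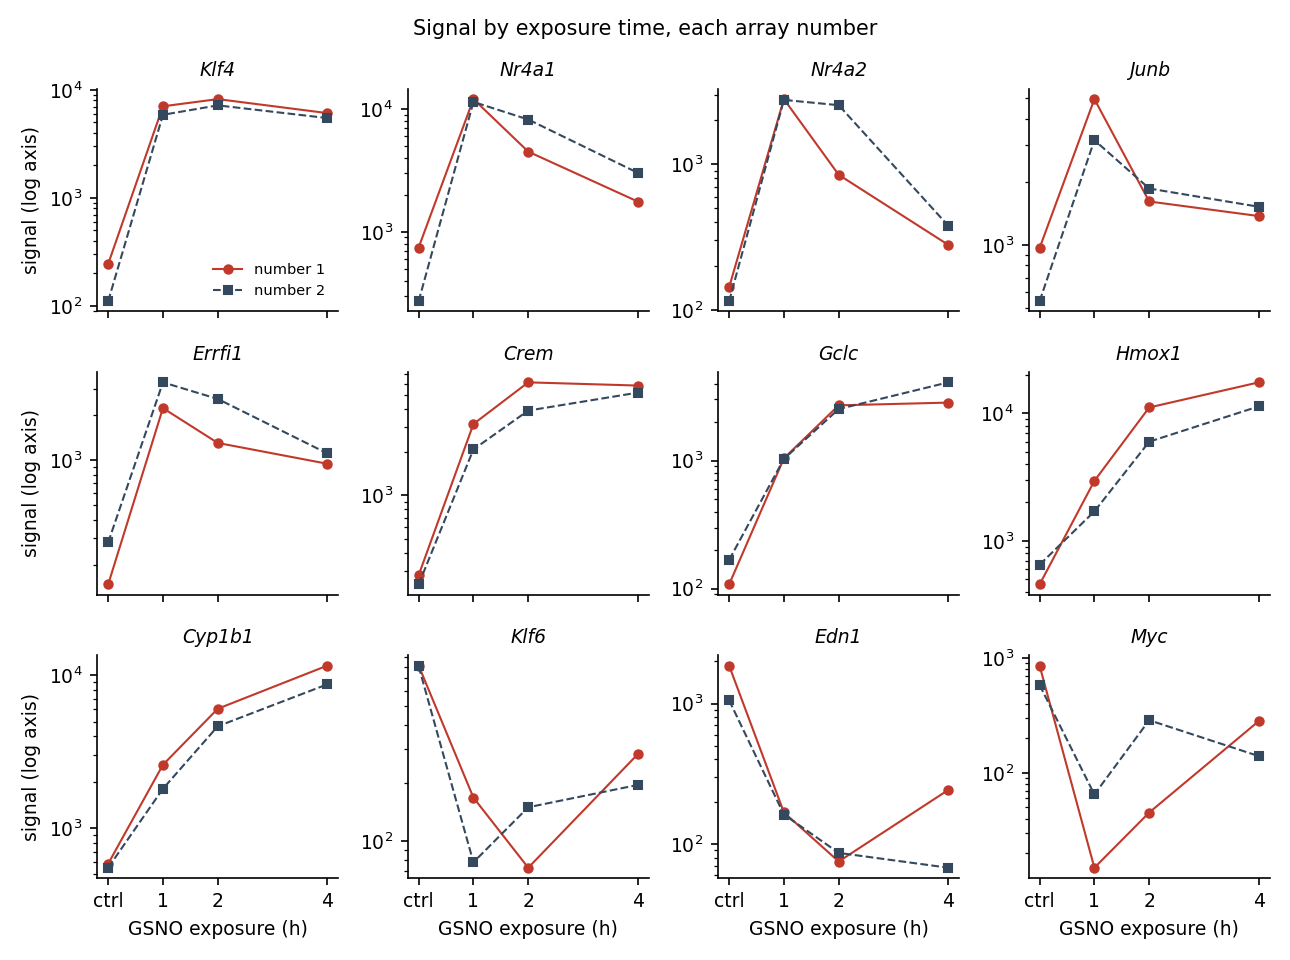
Signal on each of the 8 arrays for 12 genes over control, 1 h, 2 h and 4 h, on a log axis, with a line for each array number. Nr4a1, Nr4a2 and Junb are highest at 1 h or near it, Crem, Gclc and Hmox1 are higher at 4 h than at 1 h, and Edn1 stays low.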

How the data were processed

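Affymetrix rat arrays, 8 in 4 groups of 2, measured RNA of cultured smooth muscle cells. The authors deposited linear intensity signals, 1 for each probe set. Per the series design these came from the array maker's software, and each array's trimmed mean was about 501 (500.7 to 501.0), so the signals were used as deposited. No detection calls were used here. Scan, lot and experiment codes came from the deposited experiment records.

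Probe sets were tested (5877 of 8740) if at least 2 arrays had them at or above that array's 40th percentile. An offset of 21.1, the median of the arrays' 20th percentiles, was added before log2, which understates the changes of weak probe sets. Symbols came from GEO's platform annotation: 7018 probe sets had 1 symbol, 308 several and 1473 none. RefSeq held the ID of 6994. No 2 arrays were identical.

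limma 3.58.1 in R 4.3.3 (lmFit, eBayes with trend) fitted all 8 arrays and 4 groups, without a block, two-sided, with Benjamini-Hochberg adjustment over the 5877 and a threshold of 0.05. Whether array numbers pair the arrays was checked first: deviations of same-numbered arrays from their group means correlated by 0.387 to 0.569 over all 6 pairs of groups, so the fit with the number as a block is printed beside it. The number of arrays limits the precision. The procedure was run on simulated data with independent noise on each array. That simulation held no effect of array number, lot or experiment, so it does not bear on the choice of block.

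Named genes were every gene called in the fit without the block, the 15 largest rises and up to 12 largest falls called only with it, the 6 most opposed between numbers, up to 4 members of each list and disagreeing probe sets. The members and lists were chosen with earlier results of these data known. Alternatives were the offset, filter, scaling, blocks, trend, groups in the fit and leaving out each array.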

Additional observations from a re-analysis of the deposited data

How the results depend on the processing

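The count of 31 probe sets was 21 to 31 under another offset, filter, scaling or trend, or with only the groups compared, and 40 with the recorded experiment as a block. A replicate block of array number gave 79, and 96 with only the groups compared; chosen after seeing the data, the block with quantile normalization gave 77 and with median scaling 73. Leaving out 1 array gave 5 to 27. With the block it gave 55 and 75 without the control array numbered 1 and 2, 48 and 58 without the 1 h arrays, 75 without either 2 h array and 94 without either 4 h array. The fewest came without a 1 h array. The correlation of 0.380 between the numbers was 0.442 at 4 times the offset, 0.297 with no filter and 0.517 with the 60th percentile as the filter. With quantile normalization 31 were higher and 0 lower, so Klf6 was not called. Of 38 named genes under 29 settings, 0 changed direction. These genes were chosen by their calls. The array-number block, the trend, the filter and fitting only the groups compared leave a change as it is, so those settings could not reverse it. Without the block, the call rests on 2 arrays a group. Signals near or below the offset on at least 1 array, among them those of Hk2, Gdf15 and Il6 in control and of Dcn and Myc at 1 h, are measured least well.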

Other observations

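Some genes, chosen after their values were seen, had a change beyond 1 in both numbers on at least 1 probe set without a call in either fit. Fos, the partner of Junb in AP-1, read 32.7 and 16.1 in control and 168 and 210 at 1 h, a change of 2.22 (limma adjusted p = 0.20; 0.063 with the block). The brightest of its probe sets read 655 and 442 against 773 and 1075, a change of 0.74, with 0.23 in number 1 and 1.24 in number 2. Ptgs2, the inducible cyclooxygenase, read 315 and 168 against 851 and 626, a change of 1.57. Rasl11a, a small GTPase relative, read 377 and 168 against 1589 and 1027, a change of 2.24. On these probe sets the 1 h arrays lay above both controls, as they did for 10.1% of all probe sets.

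On the lower side, Txnip, which binds thioredoxin and limits glucose uptake, read 401 and 1042 in control and 112 and 315 at 1 h on 1 probe set, with changes of -1.66 and -1.66 in the numbers, and its other probe set had a change of -1.54. Dusp6, the phosphatase of ERK, read 219 and 182 against 39.7 and 15.3, a change of -2.23 (adjusted p = 0.16; 0.059 with the block). Its other probe set had changes of -0.40 and -1.95 in the numbers. The groups did not overlap for either gene on these first probe sets, where 13.0% of all probe sets had both 1 h arrays below both controls.

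The changes of 3 probe sets seen in number 2 alone came from 1 array each. The unnamed probe set M58404_at read 15.6 on the control array numbered 2 and 6602 to 10423 on the other 7 arrays. Rpl35, a ribosomal protein, read 309 on that same array and 9157 to 17257 on the others, while its second probe set read 8374 there and 8725 at 1 h. C19h19orf53 read 62.1 on the 1 h array numbered 2 and 751 to 1141 on the others. None of the 3 was called, and the cause was not tested.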
